A study of Mus musculus with 9 samples.

Results

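Mouse embryonic stem cells with 1 of 3 hairpins were hybridised to expression arrays, and the knockdown of Paf1 is described here against the control hairpin across all measured genes. The cells were of the NG4 line, a 129/Sv line whose green fluorescent protein reports Nanog, and were kept on gelatin with LIF, the cytokine that holds such cells undifferentiated. All groups had received a pLKO.1-based lentivirus and 72 h of selection with 2 μg/mL puromycin, so that viral delivery and the drug were common to knockdowns and controls. The shPaf1 group carried a hairpin against Paf1, the shControl group a control hairpin and the shPhf5a group a hairpin against Phf5a, a subunit of the SF3b splicing complex. The comparison rests on 6 of the 9 arrays of the series, 3 for shPaf1 and 3 for shControl, and the 3 shPhf5a arrays served to ask whether a change differed between the knockdowns. Each target was hit by 1 hairpin. The labels do not say whether replicates were separate cultures, so the p-values may reflect technical spread alone.

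Paf1 names a complex of Ctr9, Leo1, Cdc73, Rtf1 and Wdr61 that travels with RNA polymerase II along genes. The complex is known to recruit the enzymes that ubiquitinate histone H2B and methylate histone H3 in transcribed chromatin, to act on the release of paused polymerase, and to take part in the processing of RNA ends. In mouse embryonic stem cells it is known as a factor that helps to keep the undifferentiated state.

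The arrays gave 1 log2 expression value per probe set, and a difference of 1 on that scale is a 2-fold change. Of 22180 genes tested with limma over all 9 arrays, with Benjamini-Hochberg adjustment over all of them and calls at an adjusted p below 0.05, 3983 (18%) were higher in shPaf1 than in shControl and 3947 (17.8%) were lower. After each array was centred on its own median, 3386 genes were higher and 5291 lower, so that the higher genes made up 39.0% of the calls in place of 50.2%, and the median of all genes moved from -0.01 to -0.07. Most changes were small, since 91.9% of the called genes differed by less than 2-fold. By at least 2-fold, 423 genes (1.91%) were higher and 217 (0.978%) were lower, and by at least 4-fold 58 were higher and 8 lower. The 3 shPaf1 arrays and the 3 shControl arrays did not overlap for 48.3% of genes, which is the share against which the separation of any gene named below has to be read. Between the knockdowns, 3624 genes (16.3%) were higher in shPaf1 than in shPhf5a and 2806 (12.7%) lower. The array medians lay between 6.65 and 6.73, the median standard deviation within a group was 0.061 in shControl, 0.063 in shPaf1 and 0.092 in shPhf5a, and 3 arrays per group limit the precision of every value. The share of called genes rose with brightness. With genes divided into 5 equal bins by level, it was 1.58% higher and 1.33% lower in the dimmest bin, and 26.1% higher and 37.5% lower in the brightest. Among the 11090 genes above the median level of 6.7, 29.2% were higher and 30.7% lower.

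The target itself fell on every shPaf1 array. Paf1 read 10.09, 10.11 and 10.05 on the shControl arrays, 9.70, 10.02 and 9.79 on the shPhf5a arrays and 8.68, 8.72 and 8.69 on the shPaf1 arrays, and thus fell by 1.39 (SE 0.08, limma adjusted p = 1.73e-06). Its partners did not move as a block. Ctr9, the scaffold subunit, was 9.40, 9.45 and 9.26 in shControl and 10.05, 10.08 and 10.21 in shPaf1, a rise of 0.74 (SE 0.08, adjusted p = 9.5e-05). Wdr61, which the complex shares with the cytoplasmic Ski complex of RNA decay, fell by 0.37 (SE 0.04, adjusted p = 0.0001), and Rtf1 rose by 0.27 (SE 0.06, adjusted p = 0.00451). Leo1 and Cdc73 differed by 0.08 and 0.09, and neither was called.

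Among the genes that rose most were keratins, a matrix glycoprotein, a surface protein, an enzyme of prostaglandin synthesis and a growth factor. Krt18, which forms the keratin filaments of simple epithelia with Krt8, read 8.39, 8.33 and 8.31 in shControl and 11.81, 11.46 and 11.38 in shPaf1, a rise of 3.21 (SE 0.19, limma adjusted p = 2.25e-06). Krt8 had a control mean of 8.62 and rose by 2.68 (SE 0.21), to 11.56, 11.26 and 11.08. Both keratins were also high on the shPhf5a arrays, where Krt18 read 11.14, 10.34 and 11.03, and shPaf1 exceeded shPhf5a by 0.71 for Krt18 and by 0.70 for Krt8 (adjusted p = 0.0168 and 0.0353). Tinagl1, a matrix glycoprotein, went from 7.09, 7.17 and 6.97 to 10.31, 10.25 and 9.97, a rise of 3.10. Plet1, a surface protein used as a marker of trophoblast, rose by 2.66, Ptgs2, the inducible cyclooxygenase of prostaglandin synthesis, by 2.77, and Igf2, the imprinted growth factor, by 2.61. All of these were higher in shPaf1 than in shPhf5a as well, by between 0.70 and 1.35. Ahnak2 and Sp110 rose by 2.80 and 2.87 in shPaf1. Ahnak2 was lower in shPaf1 than in shPhf5a, with means of 9.37 and 10.37 (adjusted p = 0.00373), and Sp110 differed between the knockdowns by -0.02 (adjusted p = 0.975). Other probe sets rose less, by 1.18 for Ahnak2, by 1.34 and 1.39 for Sp110 and by 2.12 for Krt18. Among the other large rises were 5 Usp17-like deubiquitinase genes and 4 Tdpoz genes. These are near-identical copies expressed at the 2-cell stage, and how the array divides signal among such copies is uncertain.

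A smaller set of genes was high in shPaf1 against both other groups. In all, 1937 genes (8.73%) were called higher than both shControl and shPhf5a, 91 of them by at least 2-fold in each comparison. Serpinb9e, of the serpin clade that inhibits granzymes, read 5.04, 5.83 and 4.95 in shControl, 6.65, 5.84 and 6.33 in shPhf5a, and 9.39, 9.38 and 9.26 in shPaf1. Tnfrsf23, a decoy receptor of the TNF family, read 6.23, 6.26 and 5.77, then 6.44, 6.98 and 6.96, then 9.17, 9.65 and 9.52 in the same order of groups. For both genes the shPaf1 arrays stood far above all 6 others, by 3.07 (Serpinb9e) and 2.66 (Tnfrsf23) over shPhf5a. Mmp9, the gelatinase that cuts basement membrane collagen, read 7.09, 6.57 and 6.90 in shControl, 7.35, 7.25 and 7.11 in shPhf5a and 9.60, 9.49 and 9.41 in shPaf1 (2.65 over shControl, SE 0.12, limma adjusted p = 7.09e-07). Bmp1, the protease that trims procollagen ends, rose by 3.07 over shControl and lay 2.03 above shPhf5a. App, the amyloid precursor, rose by 2.61 and lay 1.79 above shPhf5a. Acta2, the actin of smooth muscle, moved in opposite directions in the knockdowns: it read 8.28, 8.22 and 8.22 in shControl, 7.43, 7.58 and 7.30 in shPhf5a and 10.23, 10.25 and 10.19 in shPaf1. The difference between the knockdowns was 2.79 (SE 0.07, adjusted p = 1.1e-07). Prss23, a secreted serine protease, and Cyp2b23, a cytochrome P450, were higher than shControl by 2.16 and 2.21 and than shPhf5a by 1.97 and 2.13. Another probe set of Prss23 rose by 0.63. Frg2f8 was higher by 2.96 and 2.47.

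Some transcripts that were already bright in control cells rose further. Trh, the precursor of thyrotropin-releasing hormone, read 11.61 on each shControl array and 12.93, 12.89 and 12.69 on the shPaf1 arrays, a rise of 1.23 (SE 0.10, limma adjusted p = 1.06e-05), while the shPhf5a arrays lay below the control at 11.11, 11.42 and 11.06. Lgals1, the secreted lectin galectin-1, rose by 1.07 (SE 0.09), from 11.72, 11.69 and 11.73 to 12.98, 12.75 and 12.64. It differed from shPhf5a by 0.95 (adjusted p = 4.64e-05). Fat1, an atypical cadherin, rose by 1.05 in shPaf1 and did not differ from shPhf5a beyond the test (-0.21, adjusted p = 0.173).

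The largest falls were in genes of varied roles. Mnd1, a meiotic recombination factor, read 8.28, 8.49 and 8.47 in shControl and 6.68, 6.23 and 6.84 in shPaf1, and thus fell by 1.83 (SE 0.17, limma adjusted p = 3.08e-05). Mras, a Ras-family GTPase, fell by 1.77, from 10.05, 10.17 and 10.10 to 8.42, 8.36 and 8.23. Tbc1d7, a subunit of the TSC complex that restrains mTORC1, fell by 1.75 (SE 0.08), from 10.10, 10.20 and 10.19 to 8.25, 8.47 and 8.51. Cisd3, a mitochondrial iron-sulfur protein, fell by 1.65, and the ribosomal protein gene Rpl37a by 1.64. Ptges3, a co-chaperone of Hsp90, fell by 1.67, the carbonyl reductase gene Cbr3 by 1.63, and Actn3, an alpha-actinin of muscle, by 1.59. Inhbb, the beta B subunit of inhibins and activins, fell by 1.55. Of these 9 genes, Cisd3 (-0.06) and Actn3 (0.00) did not differ between the knockdowns beyond the test (adjusted p = 0.834 and 0.998), and the other 7 were lower in shPaf1 than in shPhf5a.

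Lower than both other groups were 1335 genes (6.02%), 34 of them by at least 2-fold in each comparison. Tgm1, the transglutaminase of the cornified envelope, read 10.49, 10.40 and 10.41 in shControl, 10.38, 10.52 and 10.39 in shPhf5a and 9.10, 9.30 and 9.20 in shPaf1, and thus fell by 1.24 (SE 0.06, limma adjusted p = 1.4e-06). The control and shPhf5a arrays overlapped, and the shPaf1 arrays lay below all of them. Rec114, which is needed for meiotic double-strand breaks, was 7.86, 7.88 and 7.97 in shControl and 8.22, 8.21 and 8.37 in shPhf5a, and fell to 6.73, 6.86 and 6.70 in shPaf1. Gjb5, a connexin of early epithelia, fell by 1.15 and differed from shPhf5a by -1.40 (adjusted p = 7.89e-06), and Mok, a kinase of the MAP kinase superfamily, fell by 1.10. For Uchl1, a deubiquitinase of neurons and germ cells, the brightest probe set fell by 1.41 and another probe set of the gene differed by -0.13. Likewise Tpt1, a growth-related protein of high abundance, fell by 1.82 on its brightest probe set and differed by -0.08 on another, so that the falls of Uchl1 and Tpt1 hold for part of their probes. Over all called genes with further probe sets, 463 of 644 such probe sets had the sign of the brightest, and 50 were called in the opposite direction.

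Several falls concerned transcripts among the brightest in the cells. Washc3, of the WASH complex that builds actin on endosomes, read 11.82, 11.78 and 11.72 in shControl and 10.65, 10.69 and 10.72 in shPaf1, and thus fell by 1.09 (SE 0.05, limma adjusted p = 6.6e-07). Nudt21, the subunit of cleavage factor I that steers the choice of poly(A) site, fell by 1.24, from 11.49, 11.56 and 11.53 to 10.31, 10.28 and 10.27. Rpa3, of the protein that coats single-stranded DNA, fell by 1.07, Xrcc5, a subunit of the Ku heterodimer of end joining, by 1.08, and Uqcc2, an assembly factor of respiratory complex III, by 1.15. Lars, the leucyl-tRNA synthetase, fell by 1.01 and Idh3a, a subunit of isocitrate dehydrogenase in the TCA cycle, by 1.09. Ostc, of the oligosaccharyltransferase, fell by 1.02. All but Lars were also lower in shPaf1 than in shPhf5a.

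**Figure D1:**
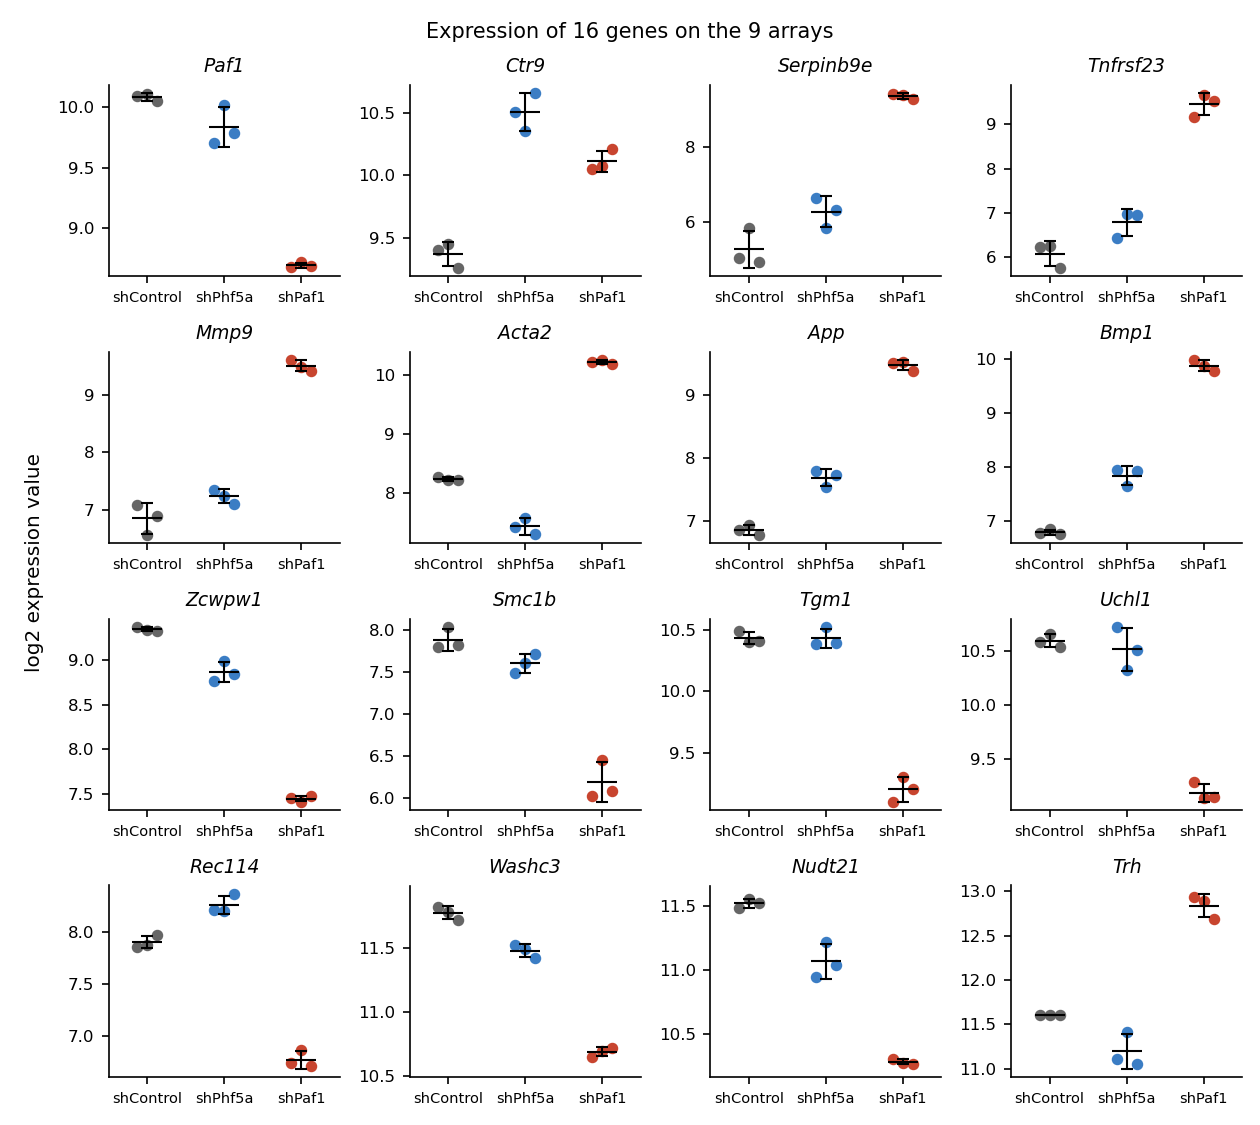
Log2 expression values of 16 named genes on the 9 arrays; points are arrays, horizontal bars are group means and whiskers are 1 SD (n = 3), and the vertical scale of each panel does not start at 0. In Serpinb9e, Tnfrsf23, Mmp9 and Acta2 the shPaf1 arrays lie above all others, in Tgm1, Uchl1 and Rec114 they lie below all others, and Ctr9 is higher in both knockdowns than in shControl.

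Genes were next grouped into 46 lists by function, holding 1400 measured genes, of which 395 were higher and 342 lower. The lists were written with earlier results of these data known, so their counts and their ranking are a description. Proteins that couple the actin cytoskeleton to adhesion sites had the largest share of higher members among these lists. Of 37 measured genes of focal adhesions and actin binding, 27 were called higher and 1 lower, with a median difference of 0.70, where 18% of all genes tested were higher and the median of all genes was -0.01. Flnc, a filamin of muscle that cross-links actin, read 7.62, 7.62 and 7.47 in shControl, 8.50, 8.14 and 8.34 in shPhf5a and 9.93, 9.96 and 9.85 in shPaf1, a rise of 2.34 (SE 0.09, limma adjusted p = 2.69e-07). Zyx, the zyxin of adhesion sites under tension, read 7.81, 7.76 and 7.79, then 8.43, 8.18 and 8.29, then 9.91, 10.05 and 9.90, a rise of 2.17 (SE 0.07). In both genes shPaf1 stood above shPhf5a, by 1.58 and 1.65. Pdlim3, a PDZ-LIM protein of actin filaments, rose by 1.76 and Nes, the intermediate filament nestin, by 1.61. Vinculin (Vcl, 0.81), talin 1 (Tln1, 0.80), filamin A (Flna, 0.70), moesin (Msn, 0.82) and vimentin (Vim, 0.57) were called higher too, whereas Ezr (0.05) and Rdx (0.13), the relatives of moesin, were not called. The member that fell was Csrp2 (-0.63). Against shPhf5a, 24 members were higher and 2 lower, where 16.3% of all genes were higher and 12.7% lower. Among genes above the median level the shares were 27.4% and 20.7%. Markers of fibroblasts, which are rich in such proteins, had 2 of 10 members higher and 0 lower, and their mean level went from between 5.93 and 5.99 to between 6.04 and 6.09, with 7 of them below the median level in shPaf1. The part of other cells in the rise of adhesion genes was not tested.

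Receptors and matrix partners at the cell surface rose more often than they fell. Of all genes 18% were higher and 17.8% lower, and of genes above the median level 29.2% and 30.7%. Of 24 integrin genes 11 were higher and 2 lower, or 4 lower after centring. Itgav (1.13) and Itga8 (1.07) led the rises, while Itga9 fell by 1.03. A further probe set of Itgav differed by -0.02. Of 33 genes of annexins, S100 proteins and caveolae 13 were higher and 2 lower. The lower genes numbered 4 after centring, and 1 without shControl replicate 1 or 3 or any single shPaf1 array. Rises were 2.05 for S100a6, 1.96 for Anxa1 and 1.75 for Anxa5, calcium-binding proteins of the membrane and cytoplasm. Of 30 genes for syndecans, glypicans and heparan sulfate synthesis 15 were higher and 3 lower, or 1 lower without any single shControl or shPaf1 array or without shPhf5a replicate 3. In a fit of the 6 compared arrays alone 5 of them were lower. Sdc4, the syndecan of adhesion sites, rose by 1.07 and was lower in shPaf1 than in shPhf5a (-0.52, adjusted p = 5.82e-05). Of 38 junction genes, 23 of them above the median level, 12 (31.6%) were higher, near the 29.2% of genes above that level. The lower junction genes numbered 4, or 2 without shControl replicate 1 or 3, shPaf1 replicate 2 or 3 or shPhf5a replicate 3. Desmoplakin (Dsp), which anchors keratin to desmosomes, rose by 2.09 and Cldn4, a claudin of tight junctions, by 1.43. In shPhf5a 9 integrin genes were higher and 2 lower than the same controls, and 10 and 1 of the annexin list. The counts there were 10 and 6 for syndecans and glypicans and 11 and 8 for junction genes. Of all genes 16.7% were higher and 20.7% lower in shPhf5a.

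Guidance and growth factor receptors followed. Their counts are to be read against 18% higher and 17.8% lower of all genes, and 29.2% and 30.7% above the median level. Of 21 ephrin and Eph receptor genes 11 were higher and 0 lower, and Epha1 read 6.21, 6.31 and 6.40 in shControl, 6.66, 6.78 and 6.79 in shPhf5a and 8.58, 8.57 and 8.37 in shPaf1, a rise of 2.20 (SE 0.07, limma adjusted p = 1.51e-07). No shPaf1 array of Epha1 came within the range of the other groups. Of 46 genes for semaphorins, plexins and other guidance cues 19 were higher and 4 lower, with rises of 1.71 for Sema6a, 1.69 for Unc5b, 1.60 for Plxna1 and 1.46 for Nrp2. Another probe set of Plxna1 differed by 0.31. Sema6a and Nrp2 lay 1.32 and 1.31 above shPhf5a, whereas Unc5b (-0.02) and Plxna1 (0.25) were not called between the knockdowns. Of 46 growth factor receptors and ligands 23 were higher and 4 lower. The receptors Egfr (1.37), Axl (1.24), Ddr1 (1.12), Igf1r (0.98) and Pdgfra (0.96) were among those that rose, and the ligands Pdgfc (-0.82), Vegfc (-0.57) and Vegfa (-0.55) and the receptor Kit (-0.48) made up the 4 that fell. A further probe set of Ddr1 differed by 0.02. Of 27 genes of TGF-beta signalling 16 were higher and 3 lower. Tgfb1i1, a LIM protein of focal adhesions that is counted in that list too, rose by 1.53 and the ligand Tgfb2 by 1.40, while Inhbb and Tgfbi were among the 3 that fell. In shPhf5a 10 ephrin and Eph receptor genes were higher and 2 lower than the same controls, and 10 and 6 of the guidance list. The counts there were 18 and 5 for growth factor receptors and ligands and 13 and 4 for TGF-beta signalling. Of all genes 16.7% were higher and 20.7% lower in shPhf5a.

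In the Notch pathway receptors, ligands and coactivators were among the genes that rose. Notch receptors are cleaved on binding a ligand of a neighbouring cell, and their freed part joins Rbpj and Mastermind proteins on target genes. Of 32 measured genes 17 (53.1%) were higher and 5 (15.6%) lower, with a median of 0.26, and 18 were above and 4 below shPhf5a. Of all genes 18% were higher and 17.8% lower than shControl, and 16.3% were above shPhf5a. Above the median level, where 23 members lay, 29.2% of genes were higher than shControl and 27.4% above shPhf5a. Notch2 read 8.18, 8.07 and 8.19 in shControl, 8.59, 8.68 and 8.57 in shPhf5a and 9.51, 9.61 and 9.68 in shPaf1, a rise of 1.46 (SE 0.06, limma adjusted p = 4.21e-07). The shPhf5a arrays lay between the other groups without overlap. Notch3, Notch1 and Notch4 rose by 1.22, 1.06 and 0.34, so that all 4 receptors were called. Among ligands, Jag1 (1.01), Jag2 (0.92) and Dll1 (0.80) rose, Dll3 fell by 0.26, and Dll4 (-0.03) was not called. The coactivators Maml1 (0.35), Maml2 (0.71) and Maml3 (0.95) rose, and Rbpj, the DNA-binding partner, fell by 0.58. Target genes differed in direction: Hey2 (0.70), Hes6 (0.46) and Nrarp (0.49) rose, Hes1 fell by 0.53, and Hes5 (-0.18), Heyl (-0.17) and Hey1 (0.02) were not called.

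Of 41 measured genes of lysosomes and autophagy, 25 (61.0%) were higher, 4 lower and 12 not called, with a median of 0.38, where 18% of all genes and 29.2% of genes above the median level were higher. With a minimum change of 0.5 log2 units 12 were higher and 1 lower. The lower genes numbered 7 after centring, with arrays weighted by their spread, and in a fit of the 6 compared arrays alone. Lamp2, a membrane protein of lysosomes, read 8.59, 8.64 and 8.58 in shControl and 9.81, 9.71 and 9.80 in shPaf1, a rise of 1.17 (SE 0.10, limma adjusted p = 1.77e-05). The proteases Ctsc (1.15), Ctsb (0.99), Ctsl (0.85) and Ctsd (0.81), the glycogen-degrading Gaa (1.07) and the autophagy receptor Sqstm1 (0.99) rose as well. The Atg8 relatives were split, since Gabarap (0.86) and Gabarapl1 (0.85) rose and Gabarapl2 fell by 0.83. Tfe3, a transcription factor of lysosomal genes, rose by 0.38, and its relatives Tfeb (-0.06) and Mitf (-0.16) were not called. Between the knockdowns 20 members were above and 8 below shPhf5a, where 16.3% of all genes were above and 12.7% below. Among genes above the median level the shares were 27.4% and 20.7%. Transcripts that respond to metals and to low oxygen rose in part. Of 21 genes for metallothioneins and zinc or iron handling 12 were higher and 3 lower, among them Mt1 (0.89) and the iron exporter Slc40a1 (1.29), but only 6 were higher without shControl replicate 3, 7 without shPaf1 replicate 3, and 6 after centring. Of 28 hypoxia targets 13 were higher and 4 lower, led by Ddit4 (1.32) and Ndrg1 (0.99), of which another probe set differed by 0.24.

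Genes of class I antigen presentation were mostly not called, but those that rose included the chain pair itself. B2m, the light chain, read 10.26, 10.17 and 10.31 in shControl, 10.31, 10.18 and 10.23 in shPhf5a and 11.14, 11.31 and 11.32 in shPaf1, a rise of 1.01 (SE 0.06, limma adjusted p = 3.41e-06). H2-K1, a heavy chain, rose by 1.27, and lay 1.57 above shPhf5a. Control and shPhf5a arrays of B2m overlapped, and the shPaf1 arrays lay above both. Erap1, which trims peptides, rose by 1.10 and the peptide transporter subunit Tap1 by 1.04, but Tap1 was lower in shPaf1 than in shPhf5a (-0.85, adjusted p = 0.000217). In all, 7 of 25 members were higher and 3 lower, or 5 lower after centring, against 18% and 17.8% of all genes.

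Lists of growth metabolism, translation and genome maintenance fell. Of 29 genes of nucleotide and one-carbon metabolism 20 were lower and 1 higher, with a median of -0.39. Thymidine kinase (Tk1) fell by 0.98, Adsl of purine synthesis by 0.87, Dut, which removes dUTP, by 0.80 and Rrm2, the small subunit of ribonucleotide reductase, by 0.75, while Cad, of pyrimidine synthesis, rose by 0.48. Of 30 genes of mitochondrial protein import 20 were lower and 1 higher, with a median of -0.36, and the small translocase subunit Timm8a1 read 9.59, 9.66 and 9.35 in shControl and 8.33, 8.11 and 7.96 in shPaf1, and thus fell by 1.40 (SE 0.16, limma adjusted p = 0.000114). Other probe sets of Timm8a1 differed by -1.36 and -0.37, and the latter was not called. Of 36 DNA repair and Fanconi genes 21 were lower and 2 higher. Besides Xrcc5, Rad51c fell by 1.04, Rad50 by 0.72 and Bard1 by 0.70. Of 34 aminoacyl-tRNA synthetase genes 19 were lower and 1 higher, and Rars2, the mitochondrial arginyl enzyme, fell by 1.22. Translation factors (22 of 42 lower, 5 higher), ribosome biogenesis factors (18 of 42 lower, 1 higher) and the TCA cycle (10 of 24 lower, 3 higher) had the same direction. These lists lie almost wholly above the median level, where 30.7% of genes were lower. Against shPhf5a the lists had 6 genes above and 6 below for nucleotide metabolism, 6 and 5 for mitochondrial import, 7 and 9 for DNA repair, and 3 and 5 for the synthetases. The counts were 10 and 10 for translation factors, 13 and 7 for ribosome biogenesis and 5 and 3 for the TCA cycle. Of all genes 16.3% were above shPhf5a and 12.7% below, and of genes above the median level 27.4% and 20.7%.

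Genes of transcription and RNA processing lie almost wholly above the median level, where 29.2% were higher and 30.7% lower. Of 33 Mediator genes 11 were higher (33.3%) and 10 lower (30.3%), close to that background. Med18 (-0.97), Med11 (-0.92), Med31 (-0.77) and Med30 (-0.65) led those that fell, and Med24 (0.68), Med23 (0.59) and Med15 (0.51) were among those that rose, as were Med12 (0.55), Med12l (0.94), Med13 (0.36), Med13l (0.57) and Cdk19 (0.23) of the kinase module. Of 16 Integrator genes, whose products cleave small nuclear RNAs and promoter-proximal transcripts, 3 were higher and 4 lower, with Ints1 rising by 0.88 and Ints6 differing by -0.68, which are 18.8% and 25.0% of the list. Of 31 general transcription factor genes 17 were lower and 5 higher, led by the TFIIH subunits Gtf2h3 (-0.71), Gtf2h4 (-0.68) and Cdk7 (-0.57). Of 24 cleavage and polyadenylation genes 9 were lower, or 5 without shPaf1 replicate 1, and 4 were higher. Nudt21 led the falls and Sympk, the scaffold of histone and poly(A) cleavage complexes, rose from 8.99, 8.94 and 8.83 to 9.94, 10.01 and 9.96, a rise of 1.05 (SE 0.06, limma adjusted p = 2.25e-06). The shPhf5a arrays of Sympk had a mean of 9.04 and lay 0.93 below those of shPaf1. Chromatin remodellers of the BAF and NuRD families showed 11 higher and 6 lower of 32, among them Smarcb1 (-0.82) and Arid1a (0.67).

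Counts in further lists of signalling and differentiation are to be read against the 18% of all genes that were higher and the 17.8% that were lower. Of 31 genes of NF-kB signalling and its targets 9 were higher and 1 lower, or 4 lower after centring. Without shControl replicate 1 or shPhf5a replicate 1, with weighted arrays, or with the 6 compared arrays alone, 2 were lower. Nfkb2 had means of 7.83 in shControl, 7.84 in shPhf5a and 8.80 in shPaf1, and Tnfaip3, which restrains the pathway, rose by 0.86. The member called lower in the fit reported here was Sod2 (-0.52), the mitochondrial superoxide dismutase. Of 28 TNF receptor genes 10 were higher and 1 lower, or 0 lower without shControl replicate 1 or shPaf1 replicate 2 or 3, and 2 without shControl replicate 2. Besides Tnfrsf23, the receptors Ngfr (0.97), Tnfrsf12a (0.80) and Tnfrsf10b (0.70) rose, and the death receptor Fas rose by 0.62 but was lower than in shPhf5a (-0.87, limma adjusted p = 0.000419). F3, the tissue factor that starts coagulation, rose by 1.92, within a list of 33 complement and coagulation genes with 7 higher (21.2%) and 4 lower (12.1%), near the shares of all genes.

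Of 17 hedgehog genes 6 were higher and 3 lower. Those that fell were the transcription factors Gli1 (-0.82) and Gli2 and the pathway inhibitor Hhip (-0.79), while Gli3 rose by 0.91. Of 21 retinoid genes 8 were higher and 3 lower, or 1 lower without shPaf1 replicate 2 or any of the 3 shControl replicates. Rdh10, which makes retinal, rose by 1.04, and Stra8, a target of retinoic acid at the entry into meiosis, fell by 1.11. Of 20 circadian clock genes 7 were higher, led by Bhlhe40 (1.46) and Per1 (0.70), and 4 lower, or 2 lower without shControl replicate 1 or shPaf1 replicate 1 or 3. Of 9 Rhox homeobox genes 4 were higher and 1 lower, or 0 lower without shPaf1 replicate 3 and 2 after centring, with Rhox6 rising by 1.66. Neuronal genes were 3 higher and 6 lower (18.8%) of 32, the lower share being near that of all genes, with Tubb3 (-0.89) and Stmn3 (-1.02) lower and Nefl (0.86) higher. Of 43 placental prolactin, cathepsin and Psg genes 0 lay above the median level and 1 was called. Of 30 genes of the sperm flagellum and the CatSper channel 0 were higher and 6 lower, a share near the 17.8% of all genes, or 10 lower after centring, and Catsperz fell by 2.39.

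As a list, cholesterol genes differed in 1 direction between the knockdowns and in both directions between shPaf1 and the control. Of 22 members, all above the median level, 4 were higher and 6 lower than shControl, with a median of 0.00. Against shPhf5a 12 were above and 0 below, with a median of 0.27. Of all genes 16.3% were above shPhf5a, and of genes above the median level 27.4% were above and 20.7% below. In shPhf5a 13 members were lower and 2 higher than the same controls. Sc5d, of the last steps of the pathway, was 1 of the 4 members called higher than shControl. It read 9.52, 9.59 and 9.50 in shControl, 9.41, 9.46 and 9.59 in shPhf5a and 10.07, 10.07 and 10.03 in shPaf1. Its shControl and shPhf5a arrays overlapped.

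**Figure D2:**
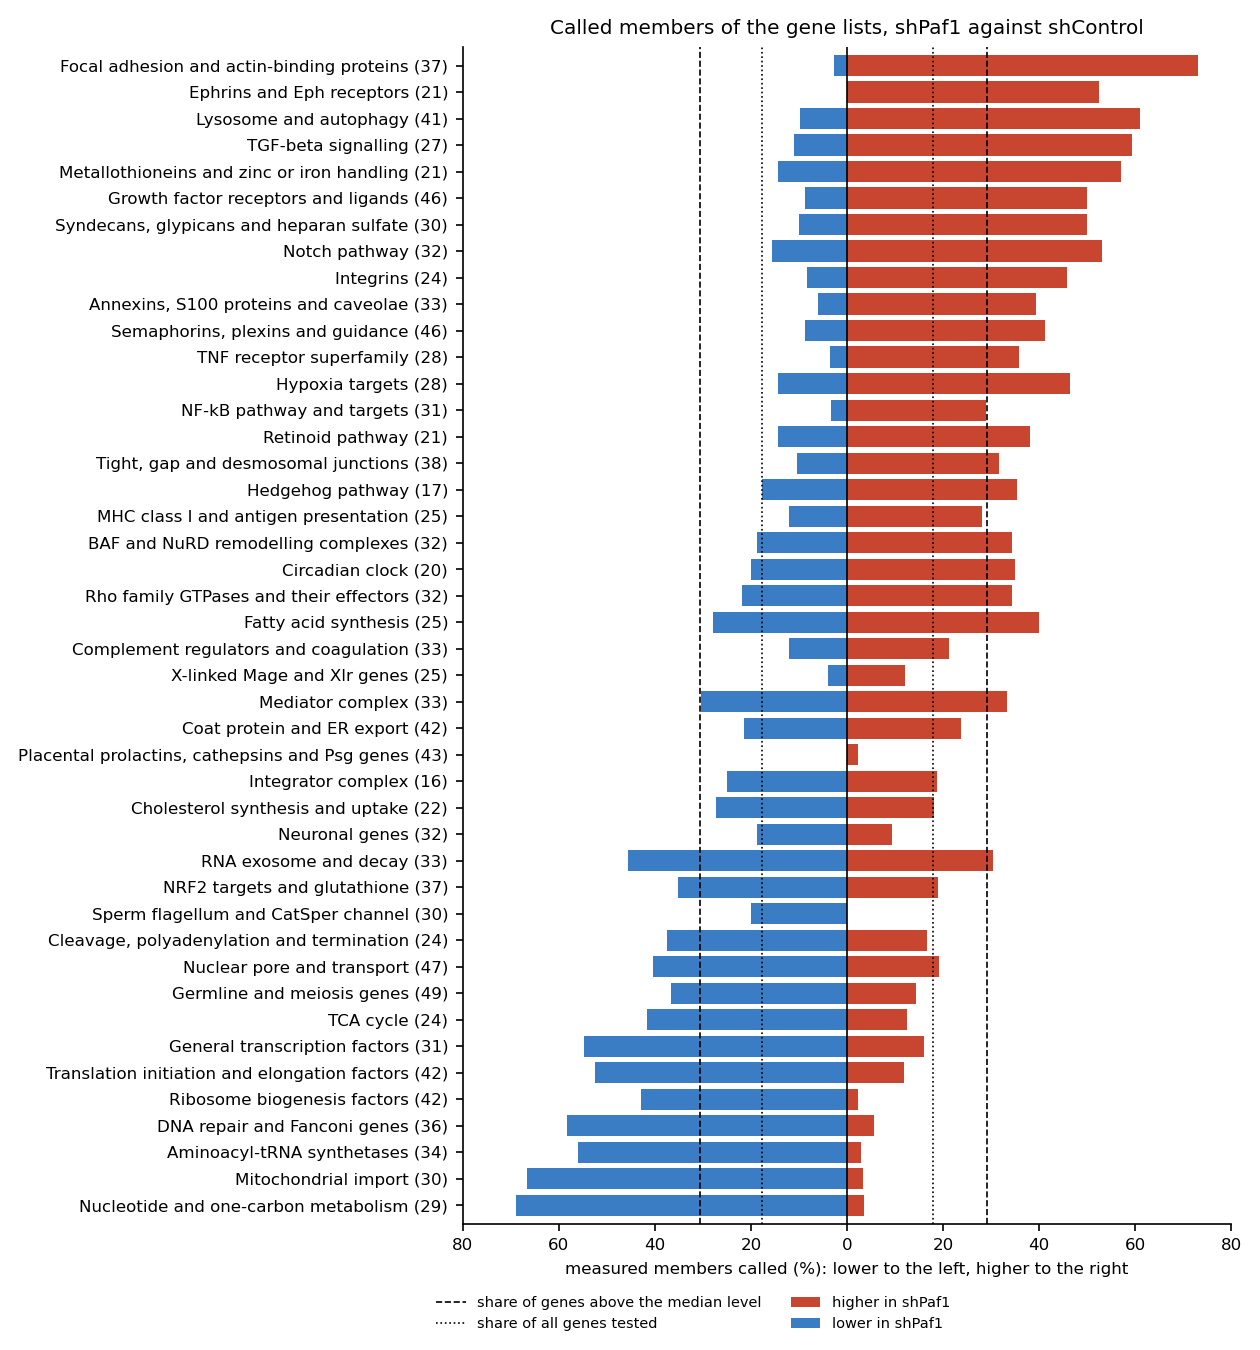
Percentage of the measured members of each list that were called higher (red, to the right) or lower (blue, to the left) in shPaf1 than in shControl, for the 44 lists with at least 15 measured members, whose numbers stand in parentheses; dotted lines mark the shares over all genes tested (18% and 17.8%) and dashed lines those over genes above the median level (29.2% and 30.7%). Focal adhesion genes reach 73.0% higher at the top, and nucleotide metabolism genes reach 69.0% lower at the bottom.

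Genes of germ cells and meiosis differed between the knockdowns. In embryonic stem cells many such genes are held at a low level by repressors that act on their promoters, among them complexes that bind the E-box CACGTG. Of 49 measured members 7 were higher and 18 lower in shPaf1 than in shControl, with a median of -0.04. In shPhf5a 22 were higher and 8 lower than the same controls. In the direct comparison 3 were above and 25 below shPhf5a, with a median of -0.25, where 12.7% of all genes and 20.7% of genes above the median level were below and the median of all genes was 0.02. Zcwpw1, a histone reader that acts with Prdm9 at recombination sites, read 9.37, 9.34 and 9.33 in shControl, 8.77, 8.99 and 8.85 in shPhf5a and 7.45, 7.41 and 7.47 in shPaf1, and thus fell by 1.91 (SE 0.06, limma adjusted p = 1.11e-07). Smc1b, the meiotic cohesin subunit, read 7.79, 8.03 and 7.82, then 7.49, 7.60 and 7.71, then 6.03, 6.46 and 6.09, and thus fell by 1.69. In these genes shPaf1 was low against both groups. Another kind of difference was seen in Sohlh2, a germ cell transcription factor, with means of 8.88 in shControl, 8.61 in shPaf1 and 9.86 in shPhf5a, and in Mael of the piRNA pathway, with 9.66, 9.84 and 10.88. Stag3, a cohesin subunit, had means of 10.02, 9.13 and 10.33, and Taf7l, a germ cell TFIID subunit, 5.49, 6.83 and 7.89. Taf7l (1.34), Tex15 (0.95), Dazl (0.61) and Tex19.1 (1.57) were called higher in shPaf1. Taf7l and Dazl were lower in shPaf1 than in shPhf5a, Tex19.1 was higher by 0.60, and Tex15 was not called (-0.22, limma adjusted p = 0.0566).

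The promoter windows of these genes were searched for CACGTG, a palindrome that reads the same on both strands. The windows are RefSeq's, on GRCm38.p6, from 250 bases before to 50 bases after the annotated start, 1 per gene, and 16990 of the genes tested had one. The motif was present in 8.18% of them and in 10.9% of the 8819 windows of genes above the median level. It was present in 15 of 42 windows of the germline list (35.7%), and in 8 of 25 windows of the general transcription factor list (32.0%). Of the 15 germline genes with the motif 11 were below and 0 above shPhf5a, with a median direct difference of -0.85. Of the 27 without it 12 were below and 3 above, with a median of -0.18. Against shControl the 15 genes had 3 higher and 3 lower members and the 27 had 3 higher and 11 lower. The search was made after the values were seen, so these counts are a description. Below stand the 3 windows with the motif whose genes differed most between the knockdowns, then the windows of the 2 genes without it that fell most against shControl, each on the strand of its gene with the motif in capitals. The motif begins 170 bases before the start in Stag3, 93 before it in Tex12 and 49 before it in Taf7l. The windows lie at chr5:138280259-138280558 (plus strand, Stag3), chr9:50561219-50561518 (minus strand, Tex12), chrX:134476441-134476740 (minus strand, Taf7l), chr5:137787081-137787380 (plus strand, Zcwpw1) and chr15:85131908-85132207 (minus strand, Smc1b).
Stag3: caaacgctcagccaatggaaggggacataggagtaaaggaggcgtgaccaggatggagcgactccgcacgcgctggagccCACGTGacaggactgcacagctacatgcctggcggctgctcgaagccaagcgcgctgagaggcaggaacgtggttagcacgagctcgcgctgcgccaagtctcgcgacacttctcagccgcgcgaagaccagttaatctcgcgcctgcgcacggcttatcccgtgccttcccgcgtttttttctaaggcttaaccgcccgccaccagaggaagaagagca
Tex12: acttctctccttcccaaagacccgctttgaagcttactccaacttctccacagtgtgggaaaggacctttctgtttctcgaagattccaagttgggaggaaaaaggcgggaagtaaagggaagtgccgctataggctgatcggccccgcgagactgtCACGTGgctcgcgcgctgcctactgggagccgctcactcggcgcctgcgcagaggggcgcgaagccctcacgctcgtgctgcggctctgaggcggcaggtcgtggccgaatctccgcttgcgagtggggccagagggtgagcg
Taf7l: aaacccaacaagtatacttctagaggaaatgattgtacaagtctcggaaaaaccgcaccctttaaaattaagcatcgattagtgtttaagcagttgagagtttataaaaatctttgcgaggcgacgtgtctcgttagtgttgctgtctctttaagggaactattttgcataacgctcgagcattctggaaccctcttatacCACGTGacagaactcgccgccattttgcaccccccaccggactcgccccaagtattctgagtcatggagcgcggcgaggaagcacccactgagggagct
Zcwpw1: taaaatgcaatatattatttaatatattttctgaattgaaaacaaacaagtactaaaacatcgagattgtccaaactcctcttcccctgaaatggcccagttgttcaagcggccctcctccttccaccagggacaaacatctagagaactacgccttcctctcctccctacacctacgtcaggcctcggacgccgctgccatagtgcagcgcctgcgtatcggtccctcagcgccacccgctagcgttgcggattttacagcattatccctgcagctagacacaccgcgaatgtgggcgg
Smc1b: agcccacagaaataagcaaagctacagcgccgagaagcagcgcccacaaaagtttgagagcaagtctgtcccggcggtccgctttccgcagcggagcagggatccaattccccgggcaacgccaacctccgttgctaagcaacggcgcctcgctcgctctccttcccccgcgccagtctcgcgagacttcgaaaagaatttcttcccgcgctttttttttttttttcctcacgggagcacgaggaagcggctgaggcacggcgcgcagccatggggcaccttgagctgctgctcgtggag
The windows of Zcwpw1 and Smc1b hold no CACGTG, which says only that these letters are absent there.

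**Figure D3:**
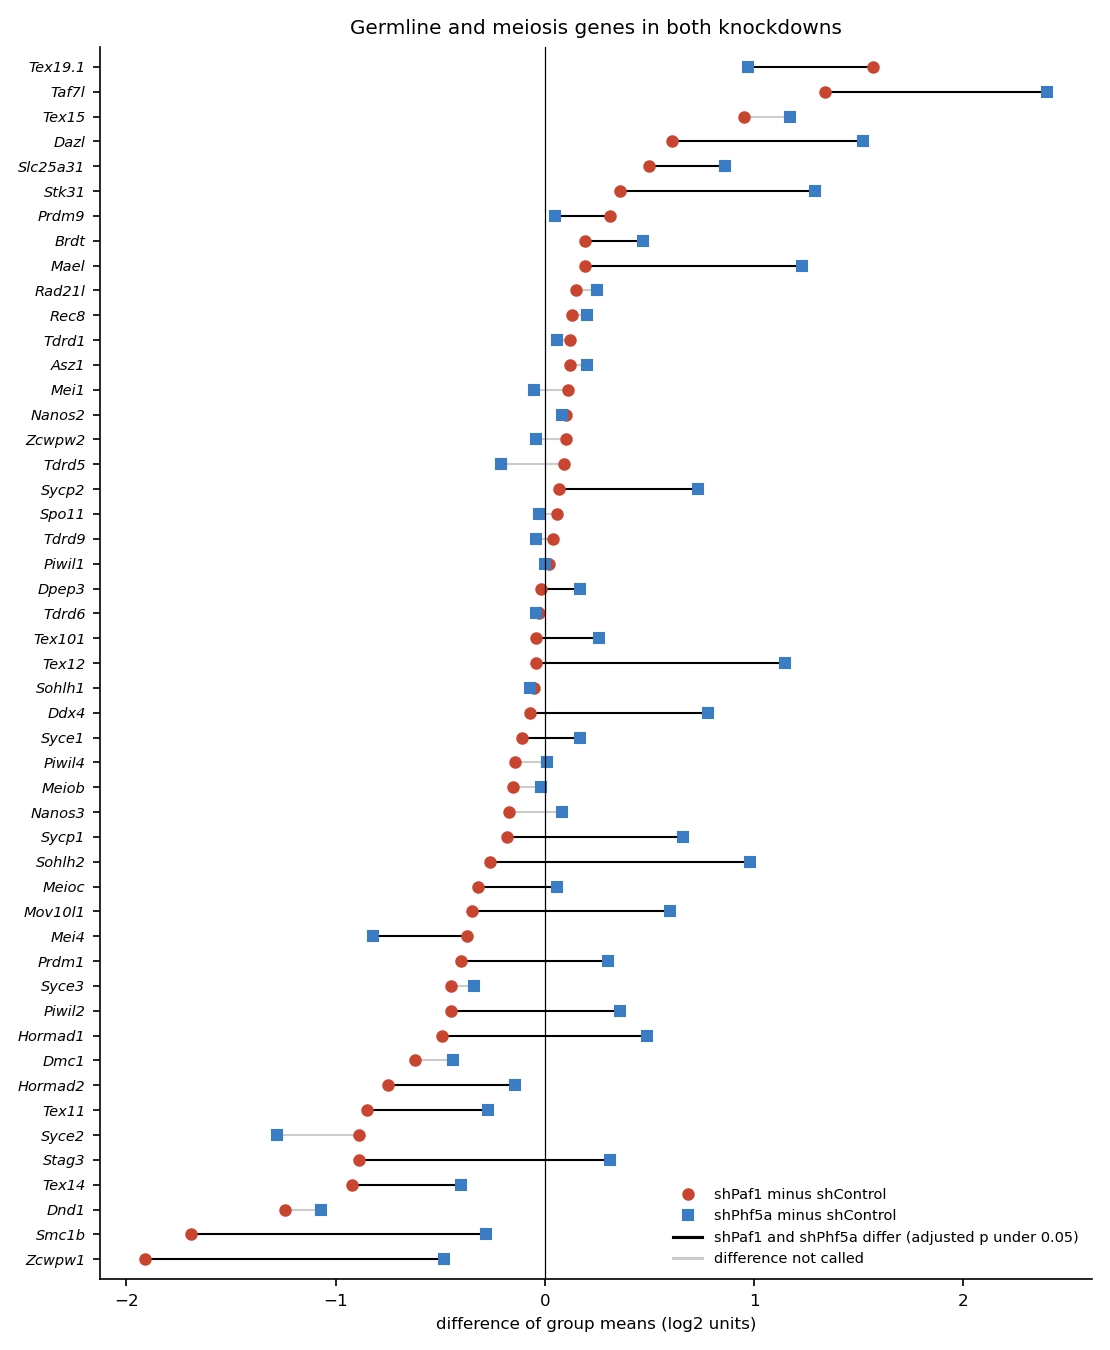
Difference from the shControl mean in log2 units (horizontal axis) for the 49 germline and meiosis genes, in shPaf1 (red circles) and in shPhf5a (blue squares), which share the control arrays; a black line joins the knockdowns where limma called their difference and a grey line where it did not. Most joined pairs have the shPaf1 point to the left, as in Stag3, Tex12, Mael and Sohlh2.

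Small nucleolar RNA genes, which RefSeq marks by biotype, were lower in shPaf1. These RNAs guide the chemical modification of ribosomal and small nuclear RNAs, and most mammalian ones are cut from introns of host genes. They were singled out after their values were seen. Of 81 measured snoRNA genes 46 (56.8%) were lower and 4 higher than shControl, with a median of -0.47, where 17.8% of all genes and 30.7% of genes above the median level were lower, and 17 fell by at least 2-fold. Against shPhf5a 39 were below and 3 above, where 12.7% of all genes and 20.7% of genes above the median level were below. In shPhf5a 25 were lower and 14 higher than the same controls, with a median of -0.13, where 20.7% of all genes were lower and 16.7% higher. Snora15 read 9.52, 9.84 and 9.67 in shControl, 7.15, 8.33 and 7.77 in shPhf5a and 6.33, 6.30 and 6.59 in shPaf1, and thus fell by 3.27 (SE 0.24, limma adjusted p = 7.41e-06). Snord22 read 9.35, 9.46 and 9.31, then 9.10, 9.05 and 9.12, then 7.34, 7.42 and 7.44, and thus fell by 1.97 (SE 0.06). Snord118, the U8 RNA of ribosomal RNA processing, read 9.36, 9.72 and 9.43, then 9.45, 9.89 and 9.62, then 7.41, 7.82 and 7.86, and thus fell by 1.81. On all of these the shPaf1 arrays were the lowest, and in Snord118 the other groups overlapped. Snord13, which acts in the acetylation of ribosomal RNA, went the other way, from 9.77, 10.14 and 9.80 to 12.64, 12.32 and 12.12, and was as high in shPhf5a (12.59, 12.07 and 12.58).

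Host genes were compared with the snoRNA genes they hold. By position, without regard to strand, 65 snoRNA genes lay within exactly 1 other measured gene, 14 in none and 2 in a pair of genes. The 65 had 48 distinct hosts, of which 28 were lower and 6 higher, with a median of -0.24, against the same shares of all genes. The snoRNA difference was below that of its host in 48 of 65 cases. Of 37 snoRNA genes that were lower, 27 had a lower host, 1 a higher host and 9 a host that was not called. Snora34 fell by 2.75 and its host Kansl2 by 0.20, and Snora69 fell by 1.76 within Rpl39 (-0.14, not called). Of the 48 hosts 9 are noncoding genes, of which 6 were lower and 0 higher. Of the 16 measured genes named Snhg, for snoRNA host gene, or Zfas1, not all of which are among those hosts, 10 were lower and 0 higher than shControl, and 10 were below shPhf5a and 1 above. Of all genes 12.7% were below shPhf5a and 16.3% above. Snhg1 read 11.03, 11.11 and 11.04 in shControl, 11.37, 11.30 and 11.44 in shPhf5a and 10.19, 10.09 and 10.04 in shPaf1, and Snhg6 read 10.09, 10.12 and 9.97, then 10.07, 10.13 and 10.12, then 9.12, 9.03 and 9.09. The shPaf1 arrays overlapped with neither group, with differences of -0.95 and -0.98 from shControl. Snhg5 fell by 1.06, Zfas1 by 1.00 and Snhg15 by 0.90. Silica columns, used for this RNA, can recover short RNAs unevenly, and the part of that step in the values was not tested.

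**Figure D4:**
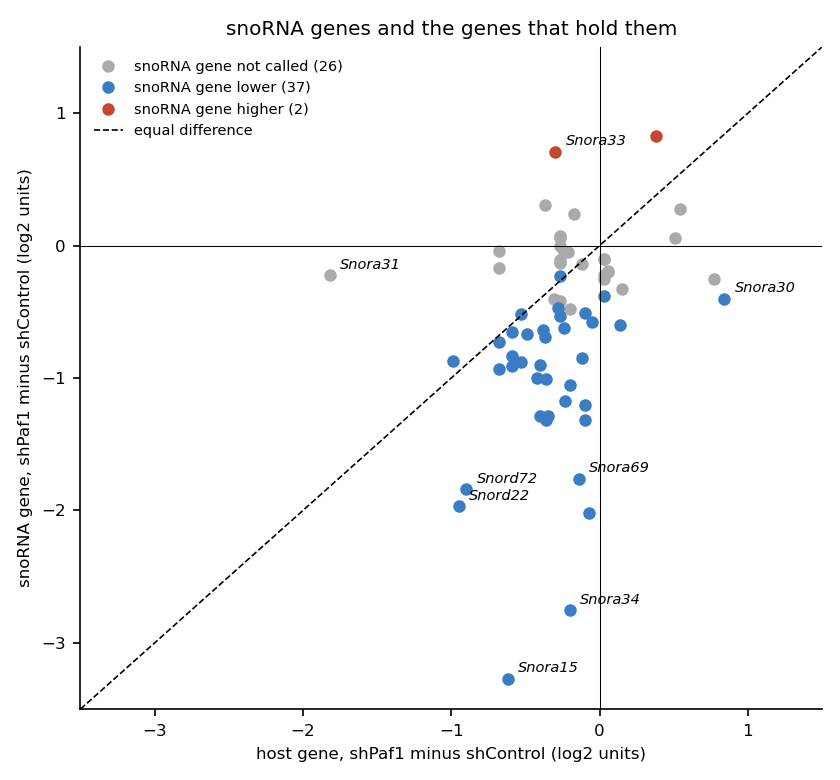
Each point is 1 of the 65 snoRNA genes that lie in exactly 1 other measured gene, with the difference of the host between shPaf1 and shControl on the horizontal axis and that of the snoRNA gene on the vertical axis, both in log2 units; snoRNA genes called lower are blue (37), higher red (2) and not called grey (26), and hosts with several snoRNAs appear more than once. Most points lie below the dashed line of equal difference, and Snora15 and Snora34 lie lowest.

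Most ribosomal protein genes were lower too. Families were formed by the start of the gene symbol, after the values were seen. Of 43 Mrpl genes, for the large subunit of the mitochondrial ribosome, 37 were lower and 0 higher, and of 28 Mrps genes of its small subunit 21 were lower and 0 higher. Of 45 genes with the start Rpl, for the large subunit of the cytoplasmic ribosome, 33 were lower and 0 higher. Of 41 with the start Rps 23 were lower and 3 higher. That start is shared by kinases of a ribosomal protein, which were not set apart, so the Rps counts are not of ribosomal proteins alone. Against shPhf5a, Mrpl genes were 4 above and 8 below, whereas Rpl genes were 2 above and 22 below. Of all genes 16.3% were above shPhf5a and 12.7% below, and of genes above the median level 27.4% and 20.7%. Against shControl, 17.8% of all genes and 30.7% of those above the median level were lower. Of 29 Pramel genes 14 (48.3%) were higher and 0 lower, and of 24 Dusp genes, which encode phosphatases of MAP kinases, 11 (45.8%) were higher and 3 lower, where 18% of all genes were higher. Of 44 collagen genes 11 (25.0%) were higher and 0 lower, with a median of 0.02, and most were not called.

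Changes ran with gene length. The 10507 protein-coding genes above the median level were divided into 5 equal bins by the span of the gene in RefSeq. In the shortest bin, from 0.297 to 8.11 kb, 20.3% of genes were higher and 37.7% lower than shControl, with a median of -0.11. The shares passed through 24.4% and 33.6%, 27.4% and 30.9%, and 33.3% and 27.7% in the bins between. In the longest bin, from 65.9 to 1300 kb, 43.8% were higher and 21.2% lower, with a median of 0.12. Each shPaf1 array showed the slope: the median difference from the control mean was -0.09, -0.11 and -0.13 in the shortest bin and 0.09, 0.14 and 0.12 in the longest, while the shControl arrays stayed between -0.01 and 0.01. Without ribosomal, respiratory chain, proteasome and histone genes the shortest bin had 22.2% higher and 34.9% lower, and the longest 43.8% and 20.9%. The slope was seen in the brighter genes (47.2% lower in the shortest bin and 23.4% in the longest) and in the dimmer ones (29.8% and 19.4%). In shPhf5a, which is compared with the same controls, 16.7% of the shortest bin were higher and 49.0% lower, and 42.0% and 21.6% of the longest. In the direct comparison 30.7% of the shortest bin were above and 15.5% below shPhf5a, with a median of 0.08, and 26.8% and 23.3% of the longest, with a median of 0.01. Probe number and position were not examined, and their part in the slope was not tested.

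**Figure D5:**
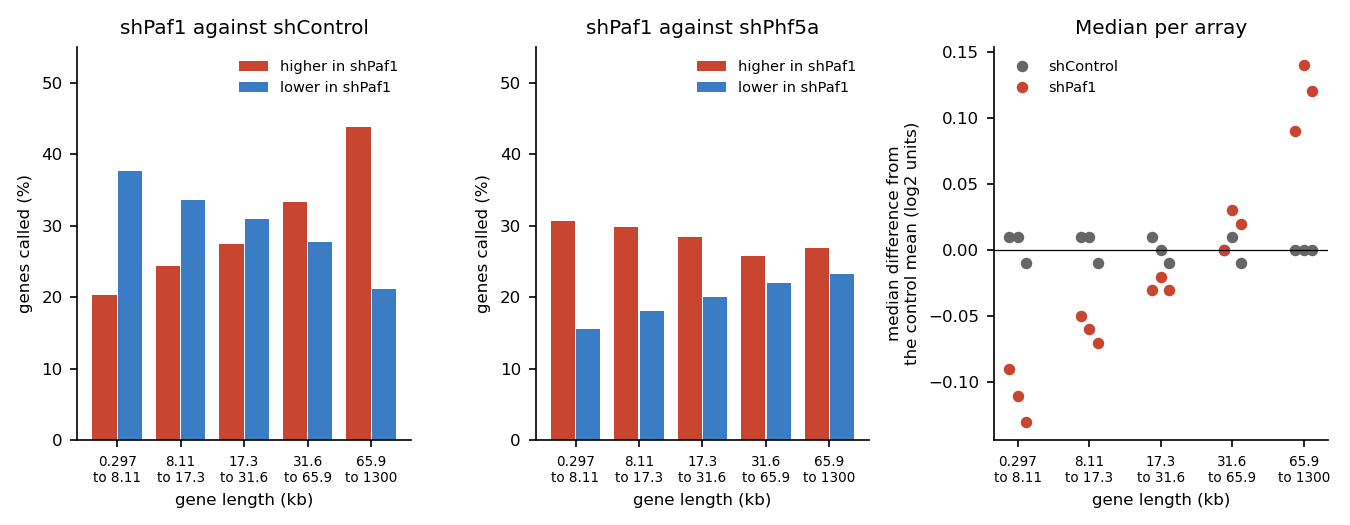
Protein-coding genes above the median level in 5 bins by gene length in kb (horizontal axes): percentage called higher (red) or lower (blue) in shPaf1 against shControl on the left and against shPhf5a in the middle, and on the right the median difference of each array from the mean of the shControl arrays in log2 units. From the shortest to the longest bin the higher share against shControl goes from 20.3% to 43.8%, and the shPaf1 arrays go from below 0 to above it.

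Markers of the cell types that such a culture could hold were read beside these changes. Of all genes 18% were higher and 17.8% lower, and of the brightest bin 26.1% and 37.5%. Of 10 embryonic stem cell markers 8 were lower and 0 higher, with their mean level going from between 10.68 and 10.71 on the shControl arrays to between 10.15 and 10.18 on the shPaf1 arrays, and 9 of them lay above the median level. Dppa5a, at a mean of 6.12 in shControl and 5.95 in shPaf1, lay below it. Stem cell markers fell in shPhf5a as well: Pou5f1 fell by 0.33 in shPaf1 and 0.59 in shPhf5a, and Nanog by 0.84 and 0.25. Endothelial markers had 2 of 9 higher, with mean levels of 6.56 to 6.65 in shControl and 6.71 to 6.74 in shPaf1, and extraembryonic endoderm markers 3 of 10 higher, with 7.02 to 7.07 and 7.19 to 7.24. Blood markers had 1 of 8 higher, muscle markers 1 of 8 lower, neuron markers 1 higher and 2 lower of 8, and trophoblast giant or spongiotrophoblast markers 1 of 4 higher. In bulk RNA, fewer cells of a kind and less RNA per cell cannot be told apart.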

How the data were processed

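Total RNA of 9 samples was isolated on silica columns and 125 ng of each was hybridised to Affymetrix whole-transcript arrays, per the labels' protocols. The authors deposited 1 value per probe set and array, taken here as log2 from their range and nearly equal quartiles. Neither the software nor the normalization is given in the sources used here. GEO's platform annotation gave 1 symbol to 23521 of 33793 probe sets, several to 1814 and none to 8458, and 23328 matched RefSeq by gene ID. Each of 22180 genes was read from its brightest probe set, by the mean of all 9 arrays.

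One mean per group was fitted to all 9 arrays with limma 3.58.1 in R 4.3.3, with Benjamini-Hochberg adjustment over all genes. On simulated data 72% of changes of 0.5, 96% of changes of 1 and 100% of changes of 2 log2 units were called for shPaf1 against shControl, and 14 of 21980 unchanged genes. The simulation left 21980 of 22180 genes unchanged, whereas 35.8% of genes were called in the data. Its shares therefore do not give the power or the false calls of the real fit. Members and lists were chosen with earlier results of these data known. Named genes were the 24 largest rises and falls among called genes with separate array ranges and a higher group mean above the median gene, the 10 brightest 2-fold changes and the 10 largest changes against both groups in each direction, and up to 4 members of each list. Predicted loci and small RNAs were left out of this rule. List members beyond these, and the snoRNA genes, families and promoter and length groups, were chosen after their values were seen. Alternatives were other normalizations, probe set rules, variance models, a minimum change, a replicate block and leaving out each array. No replicate pair held identical arrays.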

Additional observations from a re-analysis of the deposited data

How the results depend on the processing

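Over 19 alternatives the counts of genes higher and lower than shControl and than shPhf5a stayed within 1.5 times the values reported, except with a minimum change of 0.5 log2 units, which left 755 higher and 389 lower than shControl and 303 higher and 260 lower than shPhf5a. Leaving out each array in turn gave 3448 to 4271 genes higher and 3325 to 4375 lower, 399 to 444 higher and 202 to 243 lower by at least 2-fold, and 2838 to 4255 higher and 2300 to 3029 lower than shPhf5a. Replicate numbers did not pair the arrays: deviations of same-numbered shControl and shPaf1 arrays correlated by -0.01, 0.03 and 0.02, and 3 of 6 arrays correlated best with their own number. With the replicate number as a block, 3958 genes were higher and 3900 lower than shControl, and 3551 higher and 2704 lower than shPhf5a. The fit of the 6 arrays alone gave no comparison with shPhf5a.

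Of 242 named genes 73 lost a call or changed sign under some alternative, and all of these except Tekt2 and Tmed10 did so only with the minimum change. Tmed10 changed sign, to -0.05 (adjusted p = 0.616), in the mean over its probe sets, which differ. The snoRNA genes lower than shControl numbered 41 to 49 and the germline genes below shPhf5a 22 to 26 when single arrays were left out, and 19 and 13 with the minimum change. The germline genes above shPhf5a went from 3 to 1 without shPaf1 replicate 1 or 2. General transcription factors higher went from 5 to 3 without shControl or shPaf1 replicate 2 or 3, and translation factors higher from 5 to 3 without shControl or shPaf1 replicate 2. Signal near background limits the dimmest genes, where few were called.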
